A study of Mus musculus with 9 samples.

Results

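The epidermal growth factor (EGF) family comprises secreted and membrane-bound ligands and the ErbB receptor tyrosine kinases they bind. Its members were picked by gene symbol as 7 ligand genes (Areg, Ereg, Epgn, Btc, Hbegf, Tgfa and Egf) and 3 receptor genes (Egfr, Erbb2 and Erbb3), which are 10 of the 52550 genes in the count table. RNA sequencing had been performed on epidermal sheets of mouse ears, with 3 groups of 3 libraries each, in a model of psoriasis-like dermatitis and its treatment with the herbal decoction Xiao-Yin-Fang (XYF). All mice were wild type, given as C57BL/6 and 8 weeks old by the labels and as male C57BL/6J by the study's methods. The VAS + H2O group was the control, with Vaseline on the ears for 5 days and double-distilled water by gavage for 10 days. The IMQ + H2O group received imiquimod cream, an agonist of Toll-like receptors, in place of Vaseline, together with the same water. The IMQ + XYF group received imiquimod on the same schedule and 200 μl of XYF at 23.3 mg/g by gavage for 10 days. The sources differ on whether the gavage was given once or more often each day. RNA came from the ear sheets of a pair of mice, without a statement of whether this holds per library. Because no source says that the libraries of a group came from separate animals, p-values measure only the spread between these libraries, which may be technical.

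Ligands of the EGF family are made as membrane-anchored precursors and are released by metalloproteases, chiefly ADAM17. Released ligand binds the EGF receptor (EGFR), which pairs with itself or with ERBB2 or ERBB3 and signals through RAS and ERK, while negative regulators such as ERRFI1, LRIG1 and the dual-specificity phosphatases limit the signal. In the epidermis, keratinocytes make several of the ligands as well as the receptors, and the pathway is known for its part in keratinocyte growth, survival, migration and wound closure.

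The libraries held between 30298275 and 64771160 counts. A floor of 3 counts, which covers counting error only, corresponded to 0.0463 to 0.0990 counts scaled to library size (CPM), and all 10 members lay above it in every library. The keratinocyte marker list, with Krt10 as its most abundant gene, summed to 43380 to 55224 CPM in the control libraries and 56672 to 67933 CPM in the imiquimod libraries, without overlap, and all 8 of its genes were detected in every library. Of these 8 genes, 2 were called higher in each comparison with VAS + H2O, against 3.64% of all genes for IMQ + H2O and 4.58% for IMQ + XYF. Values of the libraries of a group are given throughout in order of replicate number. Libraries also differed in markers of other tissues. The 6 dermal fibroblast markers, of which Dcn was the most abundant, summed to 66.3, 623 and 99.7 CPM in VAS + H2O replicates 1, 2 and 3, to 44.6, 48.2 and 51.7 CPM in IMQ + H2O, and to 201, 152 and 69.6 CPM in IMQ + XYF. The 7 cartilage markers, led by Acan and with Matn1 at or under the floor throughout, summed to 189, 446 and 206 CPM, 80.7, 56.1 and 37.0 CPM, and 195, 136 and 136 CPM in the same order. VAS + H2O replicate 2 stood apart with the highest sums of both lists. The 5 skeletal muscle markers, led by Myh1, summed to 242 CPM in this library and to 2.79 and 3.75 CPM in the other controls, and reached 60.9 CPM in IMQ + XYF replicate 2. After imiquimod and water, relative to the control, 6 of 6 cartilage, 2 of 5 sebaceous gland, 1 of 6 dermal fibroblast, 1 of 5 dendritic epidermal T cell and 1 of 4 hair follicle markers tested were called lower, against 4.04% of all genes. In bulk RNA, fewer cells of a type and less RNA per cell cannot be told apart.

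The comparison of IMQ + H2O with VAS + H2O asks what imiquimod did to the epidermis. Epgn and Areg rose steeply, 55.0-fold and 24.8-fold, while the 3 receptors stayed within a log2 difference of 0.22 of the control. The family's transcripts thus differed most on the ligand side, where 2 of 7 ligand genes were called higher and 0 lower. Calling a gene took an adjusted p no greater than 0.05 together with a log2 difference of 1 or more in either direction. Of the 10 members, 2 were called, against 7.68% of the 18009 genes tested. Both were higher, against 3.64% of genes, and 0 were lower, against 4.04%. On the adjusted p alone the same 2 members passed, against 22.1% of genes, and DESeq2 called 3, against 8.66%. The libraries of the groups did not overlap for 5 members, against 45% of genes, and 4 of these had all IMQ + H2O libraries higher, against 23.4%. The median log2 fold change was 0.48 over the members and -0.03 over all genes tested.

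Epgn encodes epigen, a ligand of EGFR. Its level was 1.71, 2.61 and 5.10 CPM in VAS + H2O replicates 1, 2 and 3, 94.4, 119 and 302 CPM in IMQ + H2O, and 218, 129.5 and 177 CPM in IMQ + XYF. Every library from imiquimod-treated ears was above every control library by a wide margin, and IMQ + H2O replicate 3 was the highest of all. The mean rose from 3.14 ± 1.76 CPM in VAS + H2O to 172 ± 113 CPM in IMQ + H2O (SD, n = 3). The log2 fold change was 5.78 (SE 0.64, 95% confidence interval 4.27 to 7.29; edgeR, Benjamini-Hochberg adjusted p = 0.00575), which ranked 39 among the 18009 genes from the highest down.

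Areg encodes amphiregulin, a ligand of EGFR that keratinocytes use as an autocrine growth factor. It was at 0.951, 2.34 and 3.01 CPM in VAS + H2O, 18.7, 35.5 and 101 CPM in IMQ + H2O, and 56.7, 19.3 and 35.3 CPM in IMQ + XYF. The imiquimod libraries were all above the controls, with IMQ + H2O replicate 3 again the highest and the rest of that group well below it. The log2 fold change between IMQ + H2O and VAS + H2O was 4.63 (SE 0.75, 95% confidence interval 2.85 to 6.42; edgeR, Benjamini-Hochberg adjusted p = 0.0116), rank 59 among all genes. Without IMQ + H2O replicate 3 the log2 fold change was 3.69 for Areg and 5.09 for Epgn, and both were still called (edgeR, Benjamini-Hochberg adjusted p = 0.0156 and 0.00526). Over the 6 fits that omitted single libraries, the highest adjusted p was 0.0444 for Areg and 0.0285 for Epgn (edgeR, Benjamini-Hochberg). Tested against a log2 fold change of 1 rather than 0, Epgn was called and Areg was not (edgeR glmTreat, Benjamini-Hochberg adjusted p = 0.0952).

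The summed level of neutrophil markers was also higher in the imiquimod libraries. The 7 neutrophil markers, of which Cxcr2 was the most abundant, summed to 17.9, 16.7 and 19.8 CPM in VAS + H2O, 51.5, 57.2 and 154 CPM in IMQ + H2O, and 99.7, 66.2 and 69.6 CPM in IMQ + XYF. IMQ + H2O replicate 3 and IMQ + XYF replicate 1, the highest of their groups for Epgn and Areg, were also the highest for this list, and for Csf3r, with 1642 and 1459 counts. The same libraries were the highest for the monocyte or macrophage markers, led by Csf1r. These summed to 53.7, 45.0 and 43.2 CPM in VAS + H2O, 42.8, 57.6 and 81.6 CPM in IMQ + H2O, and 66.9, 41.5 and 47.5 CPM in IMQ + XYF. The neutrophil sum was mostly Cxcr2 in every imiquimod library, at 49.2, 50.4 and 80.6 CPM in IMQ + H2O and 56.1, 60.9 and 54.3 CPM in IMQ + XYF. Mmp9 did not follow, at 2.14, 5.30 and 10.7 CPM in IMQ + H2O and 9.82, 3.73 and 6.30 CPM in IMQ + XYF. The single neutrophil markers differed within a library. In IMQ + H2O replicate 1, Cxcr2 was at 49.2 CPM against 10.6 to 12.6 CPM in the controls, and Mmp9 at 2.14 CPM against 5.91 to 7.11 CPM. In the same library Csf3r had 5 counts, Ly6g, Retnlg and Mmp8 had 0, and Elane had 0 as in all 9 libraries. The part of neutrophils, monocytes or macrophages in the Areg and Epgn results was not tested.

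**Figure D1:**
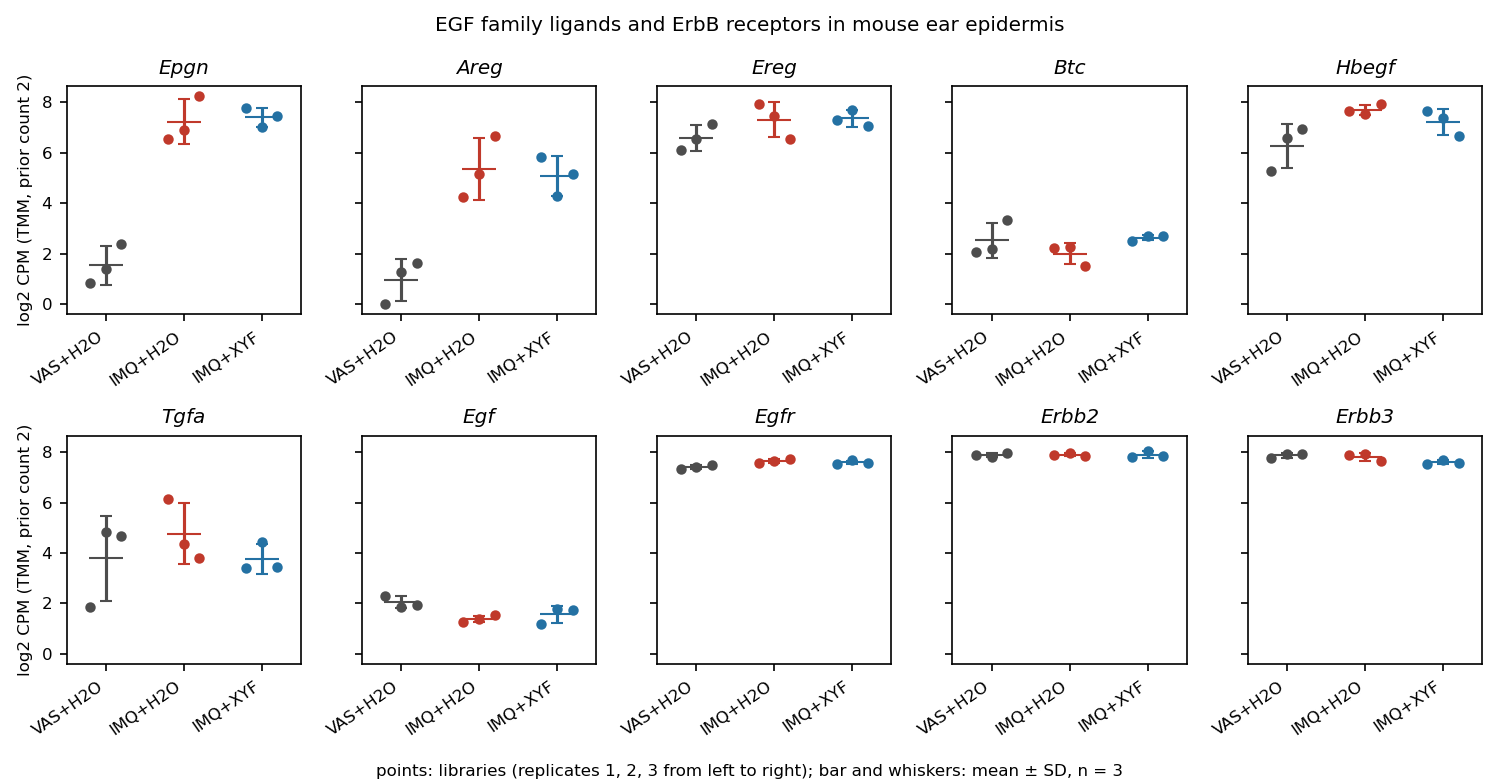
Level of each ligand and receptor gene as log2 CPM (vertical axis, TMM-normalised with a prior count of 2) in each of the 3 groups. Points are libraries and bars give the mean ± SD of 3 libraries. Epgn and Areg lie far above the controls in all imiquimod libraries, whereas Egfr, Erbb2 and Erbb3 form nearly flat rows.

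The other 5 ligands showed smaller or less even differences. Hbegf encodes heparin-binding EGF-like growth factor, a ligand of EGFR released in wounded epidermis. It was at 38.6, 97.2 and 122 CPM in VAS + H2O, 200.1, 186 and 242 CPM in IMQ + H2O, and 199.5, 167 and 101 CPM in IMQ + XYF. All IMQ + H2O libraries were above all controls, while the IMQ + XYF libraries reached into the control range. The log2 fold change between IMQ + H2O and VAS + H2O was 1.27 (95% confidence interval 0.36 to 2.18), which missed the threshold (edgeR, Benjamini-Hochberg adjusted p = 0.0558). DESeq2 called Hbegf (adjusted p = 0.00117), as did edgeR without VAS + H2O replicate 3 (log2 fold change 1.64, Benjamini-Hochberg adjusted p = 0.0447), with at least 10 counts required in every library (0.0465) or with all 9 libraries in 1 fit (0.0380).

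Ereg encodes epiregulin, which binds EGFR. Its levels were 69.1, 93.6 and 140.1 CPM in VAS + H2O, 244, 176 and 93.7 CPM in IMQ + H2O, and 159.7, 209 and 134 CPM in IMQ + XYF. The groups overlapped, and IMQ + H2O replicate 3, the highest library for Epgn and Areg, was the lowest of its group for Ereg. The log2 fold change was 0.75 (95% confidence interval -0.15 to 1.65; edgeR, Benjamini-Hochberg adjusted p = 0.196).

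Tgfa encodes transforming growth factor alpha, another keratinocyte ligand of EGFR. It was at 3.55, 28.3 and 25.7 CPM in VAS + H2O, 70.2, 20.6 and 13.8 CPM in IMQ + H2O, and 10.6, 21.5 and 10.9 CPM in IMQ + XYF. Replicates differed more than groups: VAS + H2O replicate 1 was low and IMQ + H2O replicate 1 was high. The log2 fold change was 0.84 (95% confidence interval -1.16 to 2.85; edgeR, Benjamini-Hochberg adjusted p = 0.504), and it was -0.13 without IMQ + H2O replicate 1.

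Egf and Btc, which encode EGF itself and betacellulin, were the ligands with the lowest levels per length after imiquimod. Egf was at 4.91, 3.61 and 3.81 CPM in VAS + H2O, 2.38, 2.57 and 2.82 CPM in IMQ + H2O, and 2.23, 3.39 and 3.28 CPM in IMQ + XYF. All imiquimod libraries were below all controls, with a log2 fold change of -0.68 for IMQ + H2O (95% confidence interval -1.14 to -0.21; edgeR, Benjamini-Hochberg adjusted p = 0.0505). Btc was at 4.19, 4.46 and 10.0 CPM in VAS + H2O, 4.66, 4.73 and 2.80 CPM in IMQ + H2O, and 5.64, 6.44 and 6.41 CPM in IMQ + XYF. For Btc the IMQ + H2O and control libraries overlapped (log2 fold change -0.63, 95% confidence interval -1.55 to 0.30; edgeR, Benjamini-Hochberg adjusted p = 0.288), and without VAS + H2O replicate 3 the log2 fold change was -0.07.

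Epgn, Ereg, Areg and Btc are neighbours in the genome. They lie within 376 kb of chromosome 5 (GRCm38, chr5:91027464-91402994), a stretch with 7 annotated genes of which these are the only 4 that encode proteins. Epgn (chr5:91027464-91035215), Ereg (chr5:91074622-91093646) and Areg (chr5:91139599-91148432) are on the plus strand, and Btc (chr5:91357261-91402994) is on the minus strand. The called ligands thus flank Ereg, which was not called, and Btc at the far end was not called either. An antisense gene, Gm19610, shares 141 exon bases with Ereg, 3.42% of its exon length. Outside this stretch, Egf shares 607 and 500 exon bases with a pair of antisense genes, and Tgfa 118 with another gene. Since the strand setting of the counting is not given in the sources used here, reads from shared bases cannot be assigned to either gene. The remaining members lie elsewhere: Hbegf on chromosome 18, Tgfa on 6, Egf on 3, Egfr and Erbb2 on 11, and Erbb3 on 10.

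**Figure D2:**
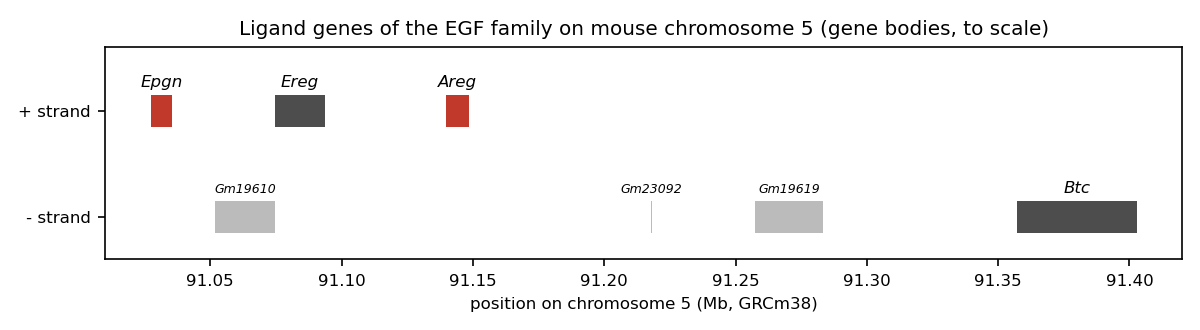
Map of the ligand genes on mouse chromosome 5, with position in Mb (GRCm38) on the horizontal axis and the strand on the vertical axis. Blocks are gene bodies to scale, red for the genes called higher in IMQ + H2O than in VAS + H2O (Epgn and Areg), dark grey for Ereg and Btc, and light grey for genes that encode no protein.

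Promoter sequences are shown for Epgn and Areg because they are the called members and lie close together, and for Btc as a neighbour that was not called. They are the bases before the start of each gene in RefSeq (GRCm38.p6), where 7 of the 10 members were examined. Ereg, the gene between Epgn and Areg that was not called, was not among them, nor were Hbegf and Erbb3. The windows of 250 bases before the RefSeq start were searched on both strands for 4 motifs: the consensus sites of AP-1 and STAT, the cAMP response element TGACGTCA, and the TATA box TATAAA. Capitals mark matches. The Epgn sequence stops after 197 bases, where the annotated gene begins.
Epgn, chr5:91027267-91027463, plus strand: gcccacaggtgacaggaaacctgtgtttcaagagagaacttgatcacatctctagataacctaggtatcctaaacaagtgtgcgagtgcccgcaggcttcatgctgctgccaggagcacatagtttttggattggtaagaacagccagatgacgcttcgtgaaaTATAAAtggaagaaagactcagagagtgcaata
Areg, chr5:91139349-91139598, plus strand: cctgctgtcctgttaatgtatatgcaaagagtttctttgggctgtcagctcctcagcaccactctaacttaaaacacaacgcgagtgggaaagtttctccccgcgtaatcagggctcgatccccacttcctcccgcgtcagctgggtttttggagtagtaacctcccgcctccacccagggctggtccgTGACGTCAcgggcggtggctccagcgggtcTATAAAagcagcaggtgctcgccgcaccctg
Btc, chr5:91402995-91403244, minus strand: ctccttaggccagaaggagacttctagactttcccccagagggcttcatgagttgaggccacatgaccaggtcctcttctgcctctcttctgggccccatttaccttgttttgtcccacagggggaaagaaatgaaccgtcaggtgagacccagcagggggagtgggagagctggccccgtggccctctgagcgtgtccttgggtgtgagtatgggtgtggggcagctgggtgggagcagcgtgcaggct
The Areg window held TGACGTCA starting 61 bases before the gene and TATAAA starting 31 bases before it. The Epgn window held TATAAA starting 86 bases before the RefSeq start, which is 33 bases before the start annotated in GENCODE. None of the 4 motifs was found in the Btc window, and AP-1 and STAT motifs were found in none of the 3 windows. Of 32851 promoters of the same length, 1.55% held TGACGTCA, 12.4% TATAAA, 6.75% the AP-1 and 7.02% the STAT motif. A match describes the letters only.

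The receptors varied little. Egfr encodes the receptor that all 7 ligands bind. It was at 162, 169.7 and 179 CPM in VAS + H2O, 190.0, 199 and 209.9 CPM in IMQ + H2O, and 186, 205 and 189 CPM in IMQ + XYF. The imiquimod libraries lay slightly above all controls, by a log2 fold change of 0.22 in IMQ + H2O (SE 0.08, 95% confidence interval 0.03 to 0.41), which was not called (edgeR, Benjamini-Hochberg adjusted p = 0.0894).

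Erbb2 encodes the receptor without a known ligand of its own that serves as the partner of the others. It was at 235, 225 and 249 CPM in VAS + H2O, 235, 249.7 and 229 CPM in IMQ + H2O, and 222, 266 and 233 CPM in IMQ + XYF. The groups overlapped fully, and the log2 fold change in IMQ + H2O lay at 0.00 with a 95% confidence interval of -0.18 to 0.18. Erbb3 encodes a receptor with weak kinase activity that binds neuregulins. It was at 215, 245 and 246 CPM in VAS + H2O, 234, 244 and 199.6 CPM in IMQ + H2O, and 187, 209 and 190.3 CPM in IMQ + XYF. The controls and IMQ + H2O overlapped (log2 fold change -0.07, 95% confidence interval -0.32 to 0.17), while all IMQ + XYF libraries were below all controls. Within a group, the highest library was 1.09 to 1.221 times the lowest for the receptors and 1.14 to 7.97 times for the ligands.

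Divided by exon length, levels can be set side by side between genes. In VAS + H2O the order of means was Erbb2 (45.4 CPM per kb), Erbb3 (39.1), Ereg (24.4), Hbegf (17.8), Egfr (15.0), Tgfa (2.96), Epgn (1.74), Areg (1.73), Btc (1.38) and Egf (0.364). Libraries of neighbours in this order overlapped from Ereg to Egfr and from Tgfa to Btc, so that the order of those neighbours is not resolved. Ereg and Egfr, which are not neighbours, did not overlap. The lowest Ereg library was at 16.7 CPM per kb and the highest Egfr library at 15.8. In IMQ + H2O, Epgn came first at 95.1 ± 62.7 CPM per kb, and its lowest library was above every library of Erbb2 (45.7 CPM per kb). That lowest Epgn library (replicate 1, 52.3) was below Ereg in replicate 1 (59.1) and Areg in replicate 3 (83.2), so Epgn was not apart from all other ligands. Hbegf (43.3), Areg (42.6), Ereg (41.5) and Erbb3 (37.5) followed with overlapping libraries, then Egfr (17.6), Tgfa (5.37), Btc (0.899) and Egf (0.230). The order in IMQ + XYF again began with Epgn at 96.7 ± 24.6 CPM per kb and ended with Tgfa, Btc and Egf.

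The summed level of the 7 ligands was 50.4 ± 21.3 CPM per kb in VAS + H2O and 229 ± 84.0 CPM per kb in IMQ + H2O, while it was 204 ± 40.5 CPM per kb with XYF (SD, n = 3). In the control epidermis, Ereg made up 50.2% ± 7.91 of this sum and Hbegf 34.2% ± 5.47, with Epgn at 3.37% ± 0.597 and Areg at 3.32% ± 0.496. After imiquimod and water, Epgn made up 38.9% ± 11.3, Ereg 21.1% ± 13.1, Hbegf 19.9% ± 4.01 and Areg 16.7% ± 8.50. In the group means, the ligand transcripts thus went from mostly Ereg and Hbegf to a mixture led by Epgn, although in IMQ + H2O replicate 1 Ereg (32.8%) was ahead of Epgn (29.0%). The shares in IMQ + XYF were 47.3% ± 6.51 for Epgn, 20.5% ± 6.96 for Ereg, 15.8% ± 4.05 for Hbegf and 14.5% ± 4.98 for Areg. With the longest transcript in place of all exons as the length, Hbegf (44.9%) and not Ereg (39.7%) had the largest share in VAS + H2O.

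**Figure D3:**
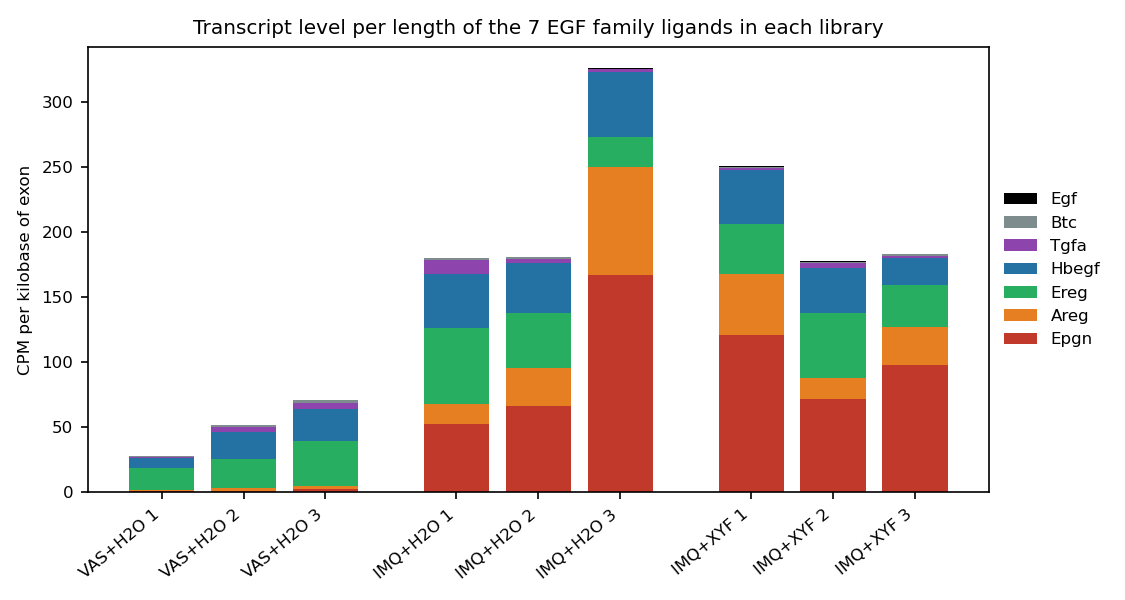
Level of the 7 ligand genes in each library, in CPM per kilobase of exon (vertical axis, stacked from 0). Each bar is a library and colours are genes. The bars of the 6 imiquimod libraries are taller than the 3 control bars.

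Other genes of the pathway were followed in 6 lists. In IMQ + H2O against VAS + H2O, edgeR called 8 of the 87 genes tested in these lists, against 7.68% of all genes. Tested with glmTreat against a log2 fold change of 1, 0 were called, where 65 of all 18009 genes were. Among the neuregulins and Erbb4, 3 of 5 genes passed the low-count filter and 1 was called higher in IMQ + H2O, against 3.64% of all genes. This was Nrg1, whose product neuregulin 1 is a ligand of ERBB3 and ERBB4. Nrg1 was at 1.37, 2.03 and 2.38 CPM in VAS + H2O, 9.81, 17.3 and 47.5 CPM in IMQ + H2O, and 25.1, 12.9 and 26.5 CPM in IMQ + XYF. All imiquimod libraries were above the controls, with a log2 fold change of 3.69 (SE 0.62) in IMQ + H2O (edgeR, Benjamini-Hochberg adjusted p = 0.0122), and 2.81 without IMQ + H2O replicate 3. Erbb4 had 0 to 9 counts in the 9 libraries and was not tested.

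In the list on ligand shedding, 1 of 10 genes was called higher, against 3.64% of all genes, and 1 lower, against 4.04%. Adam8, which encodes a metalloprotease common in leukocytes, was at 18.8, 25.7 and 34.0 CPM in VAS + H2O, 80.5, 65.6 and 124 CPM in IMQ + H2O, and 102, 73.1 and 75.9 CPM in IMQ + XYF (log2 fold change 1.77 in IMQ + H2O; edgeR, Benjamini-Hochberg adjusted p = 0.0122). Its lowest imiquimod library was above the highest control, and its highest library was the one with the most neutrophil markers. Timp3, which encodes an inhibitor of ADAM17, was at 273, 387 and 221 CPM in VAS + H2O, 106, 109.9 and 91.3 CPM in IMQ + H2O, and 187, 141 and 125 CPM in IMQ + XYF. Timp3 fell in IMQ + H2O (log2 fold change -1.54, SE 0.21; edgeR, Benjamini-Hochberg adjusted p = 0.00838), and VAS + H2O replicate 2, the library with the most fibroblast and cartilage markers, was its highest. Without that library the log2 fold change of Timp3 was -1.28, which was still called (edgeR, Benjamini-Hochberg adjusted p = 0.0213). The part of these other tissues in the Adam8 and Timp3 results was not tested. Adam17 itself averaged 75.0 ± 18.4 CPM in VAS + H2O and 110.0 ± 1.54 CPM in IMQ + H2O, with all libraries of the latter higher (log2 fold change 0.54; edgeR, Benjamini-Hochberg adjusted p = 0.0640).

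Among 15 genes of receptor feedback and turnover and 26 adaptors and kinases of the RAS-ERK cascade, edgeR called 0 in IMQ + H2O, against 7.68% of all genes, and DESeq2 likewise 0, against 8.66%. On the adjusted p alone 3 of the 15 and 2 of the 26 passed, against 22.1% of all genes. The median log2 fold changes of the lists were 0.04 and -0.05, against -0.03 over all genes. Errfi1, an inducible inhibitor of EGFR, averaged 219 ± 81.3 CPM in VAS + H2O and 183 ± 31.7 CPM in IMQ + H2O, and Lrig1, another inhibitor, 49.1 ± 9.66 and 46.4 ± 3.01 CPM. Both overlapped between the groups. Of 12 feedback inhibitors of RAS-ERK signalling, 1 was called, against 7.68% of all genes, and it was higher. This was Dusp6, a phosphatase of ERK, at 45.8, 51.2 and 55.3 CPM in VAS + H2O, 87.5, 132 and 165 CPM in IMQ + H2O, and 152, 157 and 109 CPM in IMQ + XYF. Again no imiquimod library fell into the control range (log2 fold change 1.32 in IMQ + H2O; edgeR, Benjamini-Hochberg adjusted p = 0.0122).

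The last list held 21 transcripts known to be raised by EGFR-ERK signalling, of which edgeR called 4 higher, against 3.64% of all genes, and 0 lower, against 4.04%. The median log2 fold change was 0.16. DESeq2 called 5, against 8.66%, the additional one being Fosb, which was lower (log2 fold change -1.10; edgeR, Benjamini-Hochberg adjusted p = 0.0612; DESeq2 adjusted p = 0.00243). Etv4, a transcription factor of the ETS family, was at 12.6, 14.2 and 10.4 CPM in VAS + H2O, 42.0, 36.2 and 42.5 CPM in IMQ + H2O, and 37.7, 40.3 and 41.2 CPM in IMQ + XYF. Its imiquimod libraries formed a tight block far above the controls (log2 fold change 1.68, SE 0.15; edgeR, Benjamini-Hochberg adjusted p = 0.00355). Vegfa, which encodes a growth factor for blood vessels, averaged 12.9 ± 2.29 CPM in VAS + H2O and 29.96 ± 4.85 CPM in IMQ + H2O (log2 fold change 1.20; edgeR, Benjamini-Hochberg adjusted p = 0.00994). Phlda1 averaged 20.8 ± 8.69 and 74.6 ± 34.3 CPM (log2 fold change 1.83; edgeR, Benjamini-Hochberg adjusted p = 0.0228). Hmga2, a chromatin protein, averaged 0.654 ± 0.148 and 4.72 ± 4.21 CPM (log2 fold change 2.83; edgeR, Benjamini-Hochberg adjusted p = 0.0256). For these 3 genes every IMQ + H2O library was above every control, and IMQ + H2O replicate 3 was the highest. Hmga2 was at 2.14, 2.44 and 9.58 CPM in IMQ + H2O, and without replicate 3 its log2 fold change was 1.79. Its call ended when any single control library was left out, and that of Phlda1 without VAS + H2O replicate 1 or 3.

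Setting IMQ + XYF beside IMQ + H2O asks what the decoction changed in imiquimod-treated epidermis. It shares the IMQ + H2O libraries with the comparison above. None of the 10 members was called by edgeR or by DESeq2. Across all genes edgeR called 5 of 17793 (0.0281%) and DESeq2 129 (0.755%), while 966 genes had an unadjusted p under 0.05 in edgeR. Among the members, Btc alone had an unadjusted p under 0.05 and alone had no overlap between the groups, against 10.7% of all genes, or 5.99% with all IMQ + XYF libraries higher. The Btc libraries of IMQ + XYF were all above those of IMQ + H2O, with means of 6.16 ± 0.455 and 4.06 ± 1.10 CPM and a log2 fold change of 0.61 (95% confidence interval 0.07 to 1.14; edgeR, Benjamini-Hochberg adjusted p = 0.817).

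For Epgn and Areg, which rose with imiquimod, no difference between the groups with and without XYF was called, and the intervals are wide. Epgn averaged 175 ± 44.5 CPM in IMQ + XYF against 172 ± 113 CPM in IMQ + H2O, a log2 fold change of 0.03 with a 95% confidence interval of -1.01 to 1.07, and 0.71 without IMQ + H2O replicate 3. Areg averaged 37.1 ± 18.8 against 51.8 ± 43.5 CPM, a log2 fold change of -0.47 with an interval of -1.99 to 1.05. That direction rests on the same library, without which the log2 fold change of Areg was 0.45. In edgeR, Hbegf and Tgfa were called neither here nor between IMQ + H2O and the control, where DESeq2 called Hbegf. For Hbegf the log2 fold change was -0.42 (95% confidence interval -0.99 to 0.16) and for Tgfa it was -1.28 (-2.76 to 0.21). Without IMQ + H2O replicate 1, the highest Tgfa library, the latter was -0.27. The receptors were estimated more tightly, at -0.04 for Egfr (-0.21 to 0.13), 0.02 for Erbb2 (-0.19 to 0.22) and -0.20 for Erbb3 (-0.43 to 0.02). In the 6 other pathway lists edgeR and DESeq2 called 0 genes. The median log2 fold change of the 21 EGFR-ERK transcripts, of which none passed, was -0.17 against 0.00 over all genes. Of the 87 genes tested in these lists, 4 were higher in all IMQ + XYF libraries, against 5.99% of all genes, and 9 were lower in all, against 4.68%. Among the named genes, Timp3 and Etv5 were of the higher kind (log2 fold change 0.57 and 0.45), short of the threshold (edgeR, Benjamini-Hochberg adjusted p = 0.592 and 0.774). The median log2 fold change of markers was 1.45 for dermal fibroblasts, with 0 of 6 called, 2.04 for cartilage, with 2 of 6 called higher, and 2.64 for skeletal muscle, with 0 of 4 called. The 2 cartilage genes are among the 5 genes called by edgeR. The part of these tissues in the Timp3 result was not tested.

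**Figure D4:**
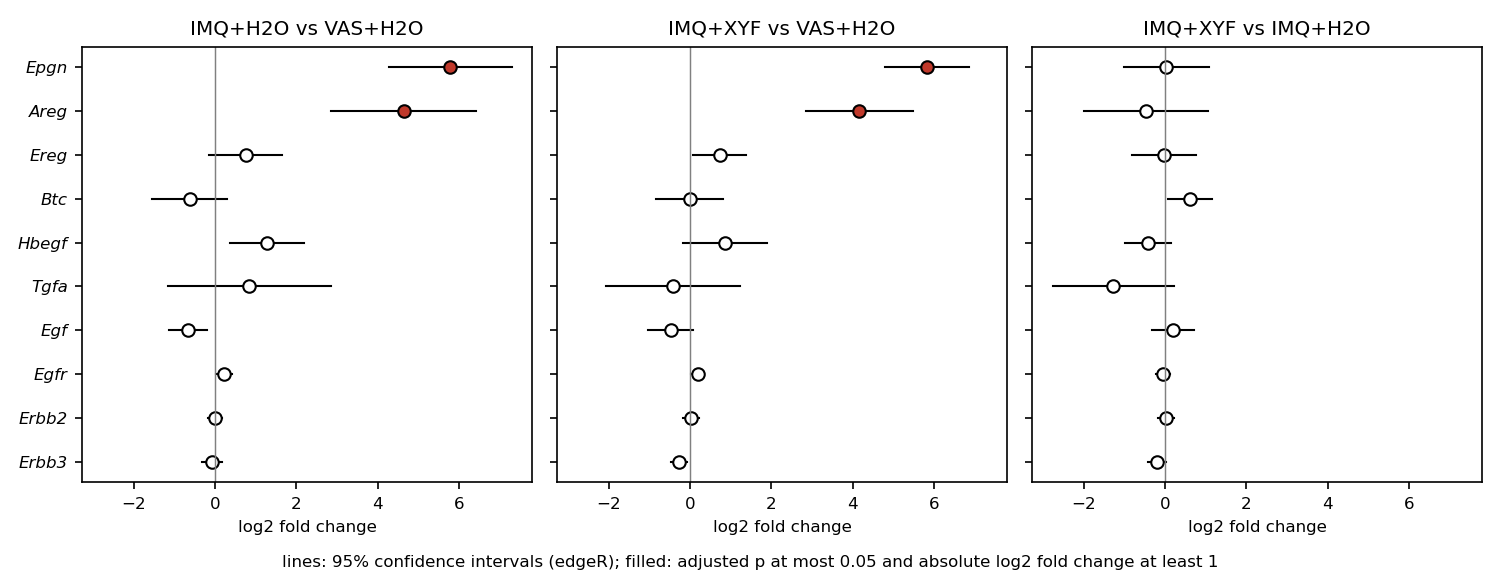
Log2 fold change of the 10 members (horizontal axis) in the 3 comparisons, with 95% confidence intervals from edgeR as lines. Filled points are called genes: Epgn and Areg in both comparisons with VAS + H2O. In IMQ + XYF against IMQ + H2O no point is filled, and intervals are narrow for the receptors and wide for Areg, Epgn and Tgfa.

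The comparison of IMQ + XYF with VAS + H2O shares its controls with the comparison of IMQ + H2O and its treated libraries with that of XYF against water. Of the 10 members, 2 were called, against 7.64% of 17954 genes. Both were higher, against 4.58%, and 0 were lower, against 3.05%. On the adjusted p alone 3 members passed, against 28.7%, and DESeq2 called 2, against 7.93%. They were Epgn (log2 fold change 5.82, SE 0.43; edgeR, Benjamini-Hochberg adjusted p = 0.000704) and Areg (4.17, SE 0.55; Benjamini-Hochberg adjusted p = 0.00297). Both were called in each of the 6 fits that left out a library. The groups did not overlap for 5 members, against 47.5% of genes, and 3 of these had all IMQ + XYF libraries higher, against 25.1%. Ereg had a log2 fold change of 0.73 (95% confidence interval 0.08 to 1.39; edgeR, Benjamini-Hochberg adjusted p = 0.0915) and was called without VAS + H2O replicate 3 (1.06, Benjamini-Hochberg adjusted p = 0.0251). Hbegf overlapped between the groups (0.86, 95% confidence interval -0.16 to 1.89).

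Erbb3 was the member with the clearest difference among the receptors. Its mean was 235 ± 17.3 CPM in VAS + H2O and 195 ± 11.6 CPM in IMQ + XYF, a log2 fold change of -0.27 (SE 0.08; edgeR, Benjamini-Hochberg adjusted p = 0.0466). This passed on the adjusted p but lay under the size required for a call, and the adjusted p was 0.0362 to 0.176 when single libraries were left out. Egfr was higher in all IMQ + XYF libraries, by a log2 fold change of 0.19 (95% confidence interval 0.02 to 0.35; edgeR, Benjamini-Hochberg adjusted p = 0.0896). Among the other pathway genes, Nrg1 (log2 fold change 3.49), Adam8 (1.68) and Dusp6 (1.46) were called higher. Of the 87 pathway genes tested, 9 were called, against 7.64% of all genes. Under glmTreat 2 were called, where 162 of all 17954 genes were. On the adjusted p alone, 24 of the 87 pathway genes passed, against 28.7% of all genes, and 15 of these were not called. Among the 15 were Timp3 (-0.96) and Adam17 (0.61; edgeR, Benjamini-Hochberg adjusted p = 0.0233 and 0.0347). Of the 21 EGFR-ERK transcripts edgeR called 6 higher, against 4.58% of all genes, and 0 lower, against 3.05%, while DESeq2 called 7, against 7.93%, with Fosb (-1.31) lower. The 6 were Etv4 (1.68), Vegfa (1.14), Phlda1 (1.42), Hmga2 (2.30), Etv5 (1.02) and Plaur (2.26), the last encoding the urokinase receptor. Plaur had 79, 138 and 100 counts in VAS + H2O but ranged from 130 to 1618 counts in IMQ + H2O and from 154 to 1663 in IMQ + XYF, highest in the libraries with the most neutrophil markers. Their part in the Plaur result was not tested. When single libraries were left out, the calls of Plaur, Phlda1 and Etv5 ended in 5, 4 and 3 of the 6 fits, and Plaur was at 1.42 without IMQ + XYF replicate 1.

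Similarity of profiles was measured as the root mean square difference of log2 CPM over the 9 libraries, each gene centred on its own mean, among 18491 genes. The genes nearest to Epgn were 2610528A11Rik (0.43), Krt6b (0.43) and Krt16 (0.44), where Epgn itself varied by 2.79 about its mean. Krt6b and Krt16 encode keratins of wounded and hyperproliferative epidermis. Krt16 was at 56.9, 61.7 and 83.9 CPM in VAS + H2O, 2111, 1980 and 4017 CPM in IMQ + H2O, and 2541, 1966 and 2465 CPM in IMQ + XYF. Like Epgn it was low in all controls and highest in IMQ + H2O replicate 3, a likeness by which it was picked. Krt6b shares closely related sequence with other keratin 6 genes, so its counts are uncertain. For Egfr, which varied by 0.12, the nearest genes were Prr14l (0.04), Ago2 (0.04) and Tfip11 (0.04).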

How the data were processed

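The authors deposited whole-number counts per gene and library without normalization. Per the paper's methods and the submitters' processing notes, reads were aligned with STAR 2.5 to GRCm38 with Ensembl annotation, and FastQC, StringTie, Cuffnorm, DESeq 1.22.1 and DESeq2 are also named. The counting tool and its strand setting are not given in the sources used here. The labels call the libraries strand-specific, while the paper names a TruSeq v2 kit. Members were matched by symbol and followed by identifier, and positions and exon lengths are from GENCODE M21.

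Each pair of groups was fitted on its 6 libraries with edgeR 4.0.16 in R 4.3.3 (TMM, filterByExpr, glmQLFit and glmQLFTest), with Benjamini-Hochberg adjustment over all genes tested. All 10 members passed the low-count filter in the 3 comparisons. Library values are TMM-normalised CPM, and log2 CPM used a prior count of 2. DESeq2 1.42.0, RLE size factors, other filters, all 9 libraries in 1 fit, a replicate block, other thresholds, another gene length and leaving out each library were alternatives. The fits were tested on simulated counts. Members and lists were chosen with earlier results of these data known. Named genes are the 10 members, the called genes of the pathway lists (at most 6 per list), Erbb4, Nrg1, Adam17, Errfi1 and Lrig1, and the 3 genes nearest in profile to the ligand and the receptor that differed most between IMQ + H2O and the control. Fosb was added after its DESeq2 result was seen. Markers appear only where tissue content was examined, and Gm19610 for its overlap. Replicates of a group differed by more than sampling noise, with a chi-square per gene of 23.8 to 75.0 for the library pairs.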

Additional observations from a re-analysis of the deposited data

How the results depend on the processing

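Epgn and Areg were called against VAS + H2O under every alternative in both comparisons, except Areg in IMQ + H2O under glmTreat. The members called in IMQ + H2O against VAS + H2O numbered 2, with 1 under glmTreat and 2 to 3 when a library was left out. All genes called there were 1383, with 3986 on the adjusted p alone, 65 under glmTreat and 711 to 1314 without single libraries (857 without VAS + H2O replicate 1, 717 without VAS + H2O replicate 2, 711 without IMQ + H2O replicate 3, in fits with fewer libraries). Pathway genes called were 8, with 17 on the adjusted p alone and 0 under glmTreat. In IMQ + XYF against IMQ + H2O, the 5 genes called became 129 with DESeq2, 1 with all 9 libraries in 1 fit, 0 under glmTreat and 0 to 5 without single libraries (0 without IMQ + H2O replicate 2 or any IMQ + XYF library, 1 without IMQ + H2O replicate 1); the cause was not tested. In IMQ + XYF against VAS + H2O, 1371 became 5152 on the adjusted p alone and 162 under glmTreat, and the 9 pathway genes became 24 and 2. Some signs turned. Erbb2 in IMQ + H2O against VAS + H2O was 0.0105 with DESeq2, 0.00502 with RLE, 0.0288 without a filter, 0.0129 with at least 10 counts and 0.00912 with all 9 libraries, and -0.0318 to 0.0681 without single libraries, where Tgfa was -0.13 to 1.25 and Erbb3 -0.14 to 0.00783. In IMQ + XYF against IMQ + H2O the ranges without single libraries were -0.93 to 0.45 for Areg, -0.33 to 0.31 for Ereg, -0.27 to 0.71 for Epgn and -0.0581 to 0.0645 for Erbb2. In IMQ + XYF against VAS + H2O, Btc was 0.00798 without a filter and 0.0139 with at least 10 counts, and -0.23 to 0.53 without single libraries, and Erbb2 was -0.0368 to 0.10. Replicate numbers did not pair the libraries (correlations of same-numbered libraries from -0.13 to 0.11). With the replicate block, calls were 1100, 0 and 1113 over all genes and 2, 0 and 2 among the members, Ereg was 0.0564 in IMQ + XYF against IMQ + H2O and Btc 0.10 in IMQ + XYF against VAS + H2O. Low counts limited Erbb4, at or near the floor.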
